A study of Mus musculus with 33 samples.

Results

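The 55 genes described here are homeobox genes that lie outside the Hox clusters, chosen by name and grouped by subfamily: 6 Dlx, 5 sine oculis type (Six2 to Six6), 6 Irx, 10 Lhx-type (Lhx, Isl and Lmx), 6 Nkx and 22 others. They are 55 of the 22367 protein-coding genes of GENCODE vM1, and all of them were found in that annotation. The study profiled chromatin by ChIP-seq in WT E14 mouse embryonic stem cells (mESC, a line kept undifferentiated in medium with LIF) and in a Uhrf1 knockout mESC line (Uhrf1 KO, here KO). It also profiled embryoid bodies (EBs, aggregates that differentiate into mixed cell types) grown from each for 1, 2 or 3 weeks. The WT and KO groups differ by label in Uhrf1 alone, and the study's methods do not state the background of the KO line. The KO is 1 line, and each of the 33 samples is a single library, 17 of WT and 16 of KO. A list of enriched regions was used for 25 of them: H3K4me3 and H3K27me3 at all 4 stages in both genotypes, H3K9me3, Oct4, Sox2 and Nanog in mESC of both genotypes, and Uhrf1 in WT mESC. The other 8 samples are inputs.

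Homeobox genes encode transcription factors that bind DNA through a homeodomain and set the identity of brain regions, sense organs, limbs, heart and gut in the embryo. In mESC they are mostly silent, and many of their promoters carry H3K4me3, a mark of active promoters, together with H3K27me3, the mark set by Polycomb repressive complex 2, a state called bivalent. Uhrf1 binds hemi-methylated DNA and brings the maintenance methyltransferase Dnmt1 to it.

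A promoter was called active when H3K4me3 alone lay within 2 kb of the gene start, repressive when H3K27me3 alone lay within 5 kb, bivalent when both marks did, and no mark when neither did. The promoters of 3 members, which were active, bivalent and without mark in KO mESC, are shown as examples of the sequence just upstream of a called start. They are the 250 bases before the gene start in mm9 (NCBIM37), written 5′ to 3′ on the gene's strand with CG dinucleotides in capitals.
Otx2, active, chr14:49287320-49287569, minus strand: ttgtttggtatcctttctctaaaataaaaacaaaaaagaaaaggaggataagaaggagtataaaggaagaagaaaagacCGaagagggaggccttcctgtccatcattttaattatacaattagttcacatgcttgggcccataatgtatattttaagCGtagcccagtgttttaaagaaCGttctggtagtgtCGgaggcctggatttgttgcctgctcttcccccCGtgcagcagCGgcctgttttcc
Nkx2-2, bivalent, chr2:147019980-147020229, minus strand: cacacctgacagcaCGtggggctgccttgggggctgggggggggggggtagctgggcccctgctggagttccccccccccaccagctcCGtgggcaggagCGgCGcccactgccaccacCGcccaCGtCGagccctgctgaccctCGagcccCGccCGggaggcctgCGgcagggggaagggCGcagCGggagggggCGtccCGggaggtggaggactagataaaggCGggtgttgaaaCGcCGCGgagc
Irx1, no mark, chr13:72101172-72101421, minus strand: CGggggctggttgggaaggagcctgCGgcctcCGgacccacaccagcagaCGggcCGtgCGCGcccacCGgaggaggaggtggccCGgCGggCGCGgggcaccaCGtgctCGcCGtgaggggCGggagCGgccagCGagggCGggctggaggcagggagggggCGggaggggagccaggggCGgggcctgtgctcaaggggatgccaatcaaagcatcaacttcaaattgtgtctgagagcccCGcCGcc
All 3 were bivalent in WT mESC. Otx2, which specifies the anterior brain, had 6 CG and 42% GC in this stretch, Nkx2-2, a ventral neural tube factor, 19 CG and 74.8% GC, and Irx1, which patterns neural and heart tissue, 23 CG and 74% GC. Across the 55 members the median was 14 CG, with quartiles of 7.5 and 21, against a median of 8 over 22362 coding genes with sequence.

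With 1 library per group there is no spread between replicates, so no difference below has a test. Intervals in parentheses are 95% Wilson intervals, which cover counting error over genes only, and the members are not independent: the 53 with H3K27me3 in WT mESC lay in 46 domains, and 1 domain of 2163.6 kb spanned Irx3, Irx5 and Irx6. The lists hold no read totals. By the study's sequencing summary the WT Oct4, Sox2, Nanog, H3K9me3 and mESC H3K27me3 libraries had more mapped reads than their KO counterparts, and the lists were not adjusted for this here. The lists differed in extent: WT mESC H3K27me3 had 8161 domains over 959.7 Mb and KO mESC 722 domains over 84.1 Mb. Among marker genes of mESC, H3K4me3 was listed at 7 of 8 in mESC of both genotypes. In WT EBs it was listed at 4, 6 and 7 of these 8 markers at weeks 1, 2 and 3, and in KO EBs at 1, 7 and 7. Markers of heart, liver and neurons (Tnnt2, Myh6, Actc1, Alb, Afp, Neurod1 and Tubb3) had H3K4me3 at 2 of 7 in mESC of both genotypes, at 5, 5 and 2 of 7 in WT EBs and at 4, 5 and 3 in KO EBs. By these markers the WT week 3 list had the same counts as the WT mESC list, against its label of differentiated cells. The KO week 2 and 3 lists had H3K4me3 at as many mESC markers as KO mESC, 7 of 8. Of the 7 heart, liver and neuron markers they had it at 5 and 3, against 2 in KO mESC. The results of these lists are given as labelled. In EBs, fewer cells that carry a mark and less of the mark per cell cannot be told apart.

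In WT cells most members were bivalent at every stage. In WT mESC 44 of 55 were bivalent (80.0%, 67.6 to 88.4), against 18.3% of all coding genes, and 9 were repressive and 2 active. The count was 46 at EB week 1 (15.2% of all coding genes), 45 at week 2 (13.7%) and 48 at week 3 (19.6%). H3K27me3 reached 53, 53, 54 and 53 members at the 4 stages, against 34.9%, 20.5%, 29.8% and 33.2% of coding genes. H3K4me3 reached 46, 48, 46 and 50 members, against 63.2%, 62.1%, 65.7% and 66.2%. By count per bin, the H3K4me3 domain at the median member stood at percentile 15.1 of the WT mESC list and its H3K27me3 domain at percentile 87.6. The medians over all coding genes with the mark were 58.6 and 57.7. Of the 14130 coding genes with H3K4me3 in WT mESC 4100 were bivalent, so this does not separate members from other bivalent genes.

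The exceptions were few. Six4 and Six5, broadly expressed factors, were active in WT mESC. Their starts are at chr12:74214401 and chr7:19679893, and H3K4me3 covered 10001 and 7108 bp of the 10001 bp around them. The 9 repressive members were Dlx5, Lmx1b, Nkx2-1, En1, Pitx1, Barx1, Pdx1, Gsx2 and Tlx1. H3K4me3 covered no base within 5 kb at En1, Nkx2-1, Pitx1, Barx1 and Tlx1, and 516 bp at Dlx5, 2170 bp at Lmx1b, 2235 bp at Pdx1 and 2412 bp at Gsx2, all of it more than 2 kb from the start. In WT EBs at week 3, 7 of these 9 were bivalent, and Pitx1 and Tlx1 were repressive.

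**Figure D1:**
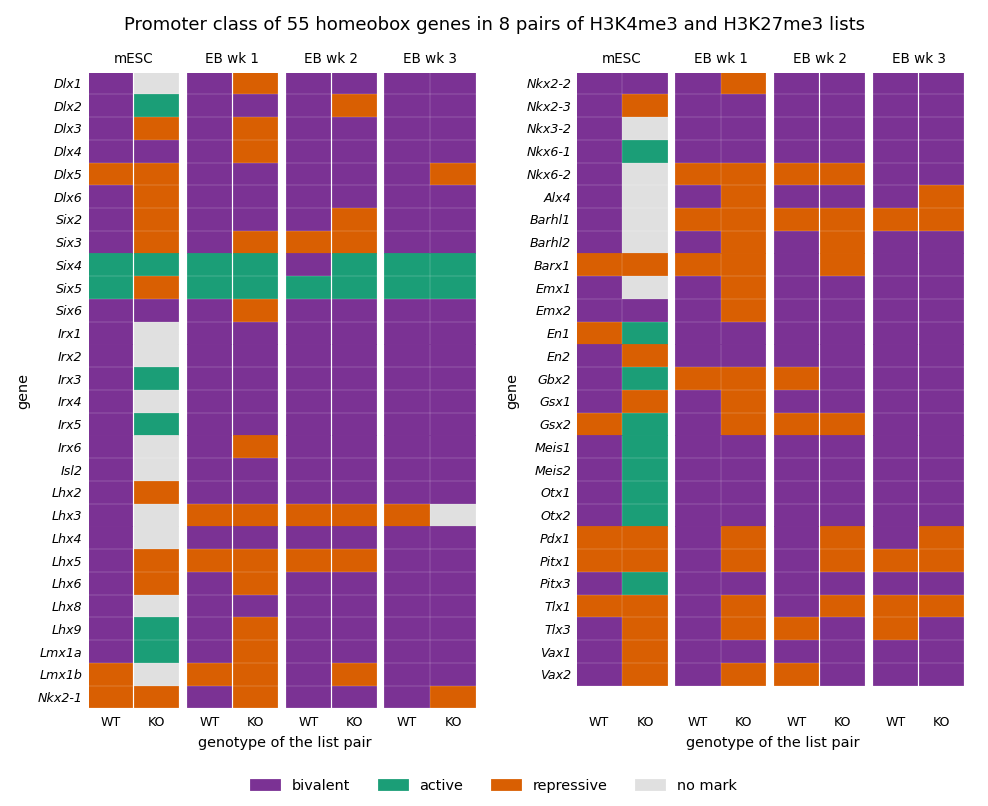
Promoter class of each of the 55 members (rows, by subfamily) in the WT and KO lists of 4 stages (columns). The colour gives the class from 1 H3K4me3 and 1 H3K27me3 list, and the KO mESC column holds 4 bivalent genes against 44 in the WT mESC column.

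In KO mESC the bivalent state was listed at 4 members (7.27%, 2.86 to 17.3), against 4.29% of coding genes. Both marks were on fewer members. H3K4me3 was at 19 of 55 in KO mESC (34.5%, 23.4 to 47.7), while 57.0% of coding genes had it. Of the 46 members with H3K4me3 in WT mESC, 17 still had it, against 88.0% of such coding genes. H3K27me3 was at 24 (43.6%, 31.4 to 56.7), while 7.57% of coding genes had it. Of the 44 members bivalent in WT mESC, 4 were bivalent in KO mESC, 12 active, 13 repressive and 15 without either mark. Over the 4100 coding genes bivalent in WT mESC the shares were 14.6%, 60.5%, 5.80% and 19.0% in the same order. H3K4me3 was thus still listed at 16 of 44 members (36.4%, 23.8 to 51.1), against 75.1% of all WT-bivalent genes, and H3K27me3 at 17 of 44 (38.6%, 25.7 to 53.4), against 20.4%.

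The H3K27me3 calls in KO mESC rest on domains with few counts. The domain lists give a mean count per bin, and the study's methods speak of read counts normalised to total mapped reads without saying whether this column is so scaled or has input subtracted. At members it ran from 5.04 to 17.6 per 1800 bp bin in WT mESC, with a median of 7.78. In KO mESC it ran from 0.00189 to 3.96 per 1500 bp bin, with a median of 1.43. The domain over Dlx5 and Dlx6 spanned 928.5 kb at 0.00189 per bin, and that over Emx2 and Vax1 spanned 1546.5 kb at 0.0620. Of the 24 members with the mark in KO mESC, 23 lay in domains below 3.04, the lowest value of any WT mESC domain. The exception was Nkx2-3, a gene of gut and spleen development, at 3.96. Over the whole KO mESC list 638 of 722 domains lay below that lowest WT value, so this was not particular to members. Without such domains no member was bivalent in KO mESC, 19 were active, 35 had no mark and only Nkx2-3 was repressive. H3K27me3 was then still listed at 1 of the 44 WT-bivalent members and at 3% of all WT-bivalent genes. The H3K4me3 counts do not depend on this choice.

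**Figure D2:**
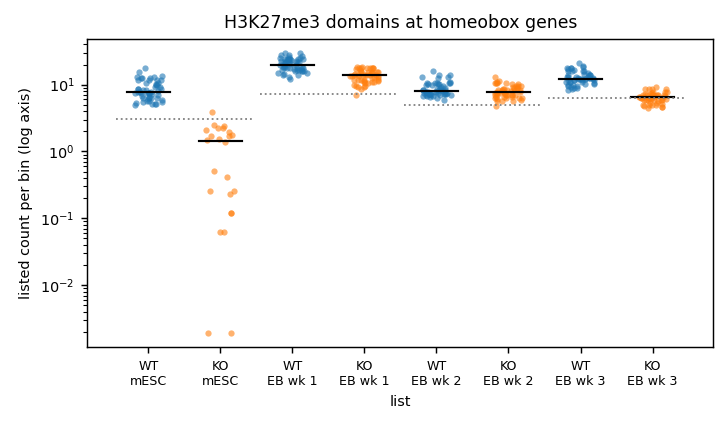
Mean count per bin listed for the H3K27me3 domain at each member that has one (points, log axis) in the 8 lists, with the median as a black bar and the lowest value of any domain in the WT list of that stage as a dotted line. In KO mESC 23 of 24 points lie under that line, and at EB week 3 21 of 52 KO points do; bins were 1500 bp in KO mESC and 1750 or 1800 bp in the other lists.

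**Figure D3:**
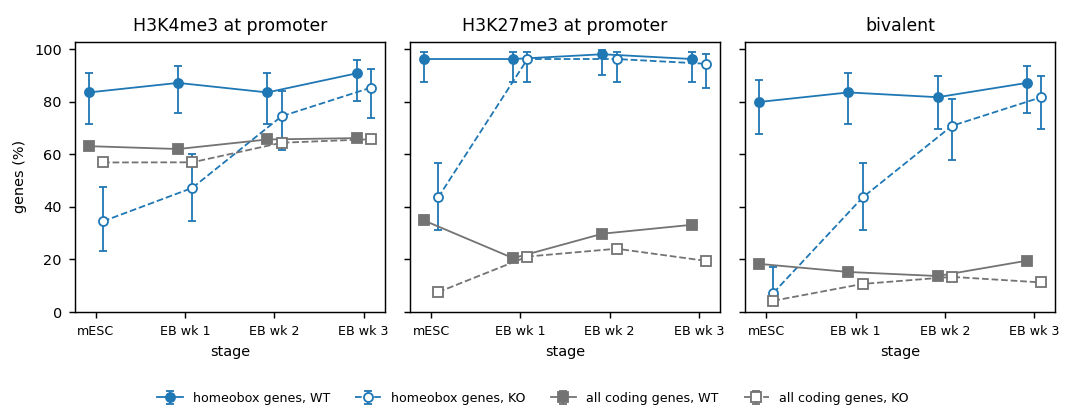
Share of the 55 members (blue) and of 22367 coding genes (grey) with H3K4me3, with H3K27me3 and with both, by stage in WT (filled, solid line) and KO (open, dashed line), with 95% Wilson intervals. Members with both marks numbered 4, 24, 39 and 45 of 55 in KO from mESC to week 3, and 44 to 48 in WT.

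The Irx genes, Iroquois factors that pattern neural tube and heart, were bivalent at 6 of 6 in every WT list. In KO mESC H3K27me3 was listed at 0 of 6, and H3K4me3 at Irx3 and Irx5 alone. Over all WT-bivalent genes the shares still listed were 20.4% and 75.1%, and 3 of the 6 Irx genes lay under 1 WT domain. H3K4me3 was at 63.2% of all coding genes in WT mESC and 57.0% in KO mESC. These shares also stand beside the counts of the subfamilies below, which hold few genes each. H3K4me3 covered 5730 bp around Irx1 in WT mESC and 0 bp in KO mESC, and then 5600, 4180 and 5830 bp in KO EBs at weeks 1, 2 and 3, against 6230, 9430 and 7030 bp in WT EBs. Around Irx3 it covered 9053 bp in WT mESC and 7448 bp in KO mESC, and around Irx5 10001 and 3806 bp. In KO EBs 5 of 6 Irx genes were listed as bivalent at week 1 and 6 of 6 at weeks 2 and 3, against 10.7%, 13.4% and 11.3% of coding genes. Irx6, the exception at week 1, was repressive there.

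The Lhx-type genes, LIM-homeodomain factors of neuron subtypes, had H3K4me3 at 9 of 10 in WT mESC and at Lhx9 and Lmx1a alone in KO mESC. Lhx5, which acts in forebrain development, went from 4906 bp of H3K4me3 in WT mESC to 0 bp in KO mESC, where its H3K27me3 domain was listed at 2.41 per bin against 7.65 in WT. It had 1295 bp and 0 bp in WT EBs at weeks 1 and 2 and 3695 bp at week 3, and 0, 1095 and 6895 bp in KO EBs. Lhx3, a factor of pituitary and motor neurons, had 2600 bp in WT mESC and none in any other list. Lhx8, which acts in forebrain cholinergic neurons, had 7800 bp in WT mESC and 0 bp in KO mESC, and 5600 bp at week 3 in both genotypes.

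Among the Dlx genes, which act in forebrain interneurons, jaws and limbs, H3K4me3 was at 5 of 6 in WT mESC and at Dlx2 and Dlx4 in KO mESC. Dlx1 and Dlx2 are neighbours under 1 H3K27me3 domain of 88.2 kb in WT mESC. H3K4me3 covered 7670 bp around Dlx1 in WT mESC and 0 bp in KO mESC, but 7090 and 5790 bp around Dlx2. Dlx6 went from 10001 bp to 0 bp and back to 4900, 4200 and 6000 bp in KO EBs, where WT EBs had 7667, 7600 and 4800 bp. Dlx5 was bivalent in WT EBs at all 3 weeks and repressive in KO EBs at week 3, with 3600 and 0 bp.

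Six2 to Six6 act in eye, kidney, muscle and forebrain. Six2 and Six3 lost their H3K4me3 call in KO mESC, from 7800 and 8648 bp to 0 bp each. Six6, an eye and pituitary factor, was called bivalent in both genotypes with 8332 and 10001 bp. Its KO call also rests on an H3K27me3 domain below the lowest WT value. Six4 was active in every list but WT week 2, where it was bivalent, and its H3K4me3 count per bin was 12.95 in WT mESC and 8.87 in KO mESC. Six5 had no H3K4me3 call in KO mESC and 3150, 3500 and 3600 bp in KO EBs. Its repressive class in KO mESC came from a domain of 19.5 kb that covered 393 bp of the 10001 bp around the start.

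The Nkx genes of ventral neural tube, gut and skeleton had H3K4me3 at 5 of 6 in WT mESC and at Nkx2-2 and Nkx6-1 in KO mESC. Nkx2-2, a ventral neural tube factor, had 4622 and 5922 bp in WT and KO mESC, and 6622 against 0 bp at week 1. Nkx6-1, which acts in motor neurons and pancreatic beta cells, had 8856 bp in both. Nkx3-2, a somite and skeleton factor, went from 6966 bp in WT mESC to 0 bp in KO mESC, and stood at 6300, 9566 and 6400 bp in KO EBs. Nkx2-1, which acts in thyroid, lung and ventral forebrain, had 0 bp in both mESC lists and was bivalent in KO EBs at week 2 alone, with 5806 bp.

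The 22 other members held these active promoters of KO mESC: Otx1 and Otx2 of the anterior brain, Meis1 and Meis2, which are cofactors of Hox proteins, Pitx3 of dopamine neurons and lens, Gbx2 of the hindbrain border, En1 of midbrain and limb, and Gsx2 of the ventral telencephalon. Otx1, Otx2, Meis1 and Meis2 had 10001 bp of H3K4me3 in mESC of both genotypes. Their counts per bin were 12.9, 21.5, 13.6 and 11.8 in WT mESC and 8.61, 13.6, 10.6 and 5.83 in KO mESC, lower in KO at all 4. The median over all coding genes with the mark was also lower in KO, at 11.5 against 14.6. En1 and Gsx2 moved the other way by class, from repressive in WT mESC to active in KO mESC: H3K4me3 covered 0 and 6306 bp around En1, and 2412 and 5012 bp around Gsx2. En2, Emx1, Gsx1, Vax1, Vax2, Tlx3, Alx4, Barhl1 and Barhl2 lacked the H3K4me3 call in KO mESC that they had in WT. Tlx3, a factor of sensory neurons, kept 2013 bp within 5 kb in KO mESC, but none within 2 kb. Emx2, a cortex factor, was called bivalent in mESC of both genotypes with 1300 bp of H3K4me3 in each. Its KO call rests on an H3K27me3 domain below the lowest value of any WT mESC domain. At week 1 Emx2 had 0 bp of H3K4me3 in KO EBs against 4000 bp in WT EBs.

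In KO EBs the bivalent class was listed at more members from week to week. It was at 24 members at week 1 (43.6%, 31.4 to 56.7), against 10.7% of coding genes, at 39 at week 2 (13.4%) and at 45 at week 3 (11.3%). H3K4me3 was at 26, 41 and 47 members in KO EBs, against 57.0%, 64.5% and 65.8% of coding genes, and H3K27me3 at 53, 53 and 52, against 21.1%, 24.1% and 19.5%. At week 1, 24 of 46 WT-bivalent members were bivalent in KO (52.2%, 38.1 to 65.9), against 50.9% of all WT-bivalent genes. This count fell to 8 with domains above the median score and to 12 with both marks over the start. Under the score setting 9 of 36 members still had H3K4me3, against 61.0% of all WT-bivalent genes. With the main windows the other 22 of the 46 were repressive and 0 were active or without mark. The shares over all WT-bivalent genes were 20.3%, 24.1% and 4.69%. So 46 of 46 still had H3K27me3, against 71.2%, and 24 of 46 H3K4me3, against 75.0%. Of all members with the mark in WT at week 1, 26 of 48 still had H3K4me3 (90.0% of coding genes) and 53 of 53 H3K27me3 (72.3%). The KO week 1 list was also the one with H3K4me3 at 1 of 8 mESC markers. The KO week 2 and 3 lists had it at 7 of 8, as in KO mESC. The part of cell makeup in the counts of KO EBs was not tested. At week 2, 36 of 45 WT-bivalent members were bivalent in KO, against 54.5% of all WT-bivalent genes, 8 were repressive (6.53%) Six4 was active (35.3%) and 0 had no mark (3.62%). At week 3, 44 of 48 were bivalent (91.7%, 80.4 to 96.7), against 46.7%, 4 were repressive (3.57%), 0 active (46.8%) and 0 without mark (2.88%). H3K4me3 was still listed at 37 of 45 members at week 2 (89.8% of WT-bivalent genes) and 44 of 48 at week 3 (93.6%). H3K27me3 was still listed at 44 of 45 and at 48 of 48, against 61.0% and 50.3%. At week 3 the KO H3K27me3 domains at members had a median of 6.49 per bin against 11.97 in WT. In the whole KO week 3 list 2985 of 3722 domains lay under the lowest WT value, as did those at 21 of 52 members. Without these domains the bivalent count in KO was 26. H3K27me3 was then still listed at 30 of 48 WT-bivalent members (62.5%, 48.4 to 74.8), against 13.7% of all WT-bivalent genes.

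**Figure D4:**
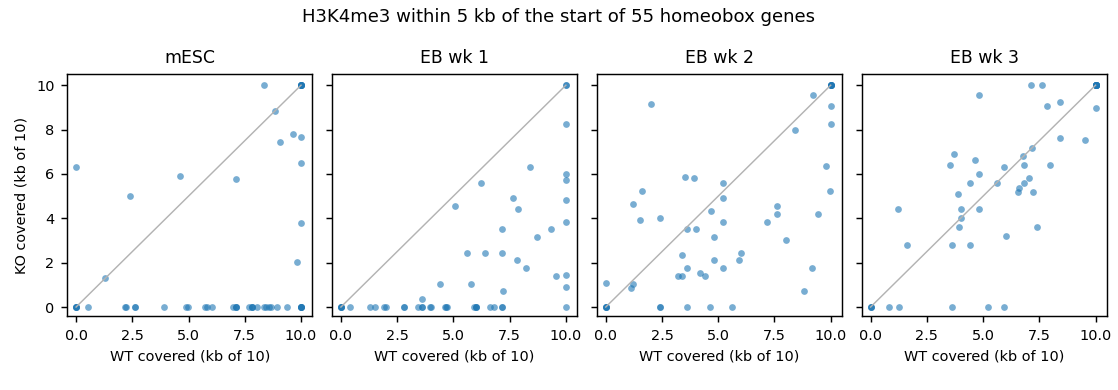
Bases covered by H3K4me3 within 5 kb of the start of each member (points, in kb of 10), KO against WT, at 4 stages, with equal values on the grey line. The median member had 7800 bp in WT mESC and 0 bp in KO mESC, and at week 3 the points lie on both sides of the line.

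The same course showed in the width of H3K4me3. In mESC the covered length was lower in KO than in WT at 38 of the 55 members, equal at 13 and higher at 4. Over coding genes with the mark in WT it was lower at 40.6%, equal at 37.6% and higher at 21.9%. Among members bivalent in WT mESC it was lower at 34 of 44 (77.3%), against 55.8% of all WT-bivalent genes. The 4 members with more in KO were Six6, Nkx2-2, En1 and Gsx2. At week 1 it was lower at 49, equal at 6 and higher at none, and the median member had 6000 bp in WT and 0 bp in KO. Among members bivalent in WT at week 1 the covered length was lower at 44 of 46 (95.7%) and higher at 0. Over all WT-bivalent genes it was lower at 88.5% and higher at 9.77%. Over coding genes with the mark in WT it was lower at 81.4%. The median went from 6511 bp in WT to 800.5 bp in KO over WT-bivalent members at week 1, and from 5600 to 3150 bp over all WT-bivalent genes. Over coding genes with H3K4me3 in WT it went from 6400 bp to 4900 bp. At week 2 the WT-bivalent members had medians of 5200 bp in WT and 3850 bp in KO, and at week 3 of 6800 and 6400 bp. Of the 29 members with H3K4me3 in WT mESC and not in KO mESC, KO EBs had it at 14, 22 and 26 at weeks 1, 2 and 3, while of the 1699 such coding genes KO EBs had it at 43.1%, 67.1% and 76.1%. Of the same 29 members, 11 also lacked in KO at week 1 an H3K4me3 call that WT had at week 1, against 25.4% of those coding genes. Over the 8 pairs of lists 24 members were bivalent in 7, against 2.696% of coding genes, and 0 were bivalent in 8, against 0.684%.

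Some members lacked H3K4me3 in KO EBs at weeks when WT EBs had it. Pdx1, the pancreas factor, was bivalent in WT EBs at all 3 weeks, with 2800, 2400 and 5200 bp, and had 0 bp in each KO list. Pitx1, of hindlimb and pituitary, had 4648, 4648 and 0 bp in WT EBs and 0 bp in KO EBs, and Tlx1, of spleen, had 4726, 2400 and 1275 bp against 0 bp. The 1275 bp at Tlx1 lay more than 2 kb from the start, so WT had no call there at week 3. Barhl2, a neuronal factor, had 6000, 3600 and 3532 bp in WT EBs and 0, 0 and 6400 bp in KO EBs. Alx4, of skull and limb, had 3941, 5941 and 5941 bp in WT EBs and 0, 2100 and 0 bp in KO EBs. The opposite also occurred. At week 2 Gbx2, Vax2 and Tlx3 were repressive in WT and bivalent in KO, 3 of 9 members without H3K4me3 in WT, against 6.61% of such coding genes. At week 3 Tlx3 was so again, 1 of 5, against 6.05%. H3K4me3 was in none of the 4 KO lists at 5 members, Barhl1, Lhx3, Pdx1, Pitx1 and Tlx1, against 30.6% of coding genes, and in none of the 4 WT lists at 0 members, against 28.7%. It was in all 4 WT lists at 38 members (57.2% of coding genes) and in all 4 KO lists at 10 (51.0%): En1, Irx3, Irx5, Meis1, Meis2, Nkx6-1, Otx1, Otx2, Pitx3 and Six4.

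What else separated the members that kept the H3K4me3 call in KO mESC from those that did not was described without a test. The 16 with the call had WT domains of 12.1 counts per bin and 18.2 kb at the median, and the 28 without had 8.47 and 13 kb. The same order held over all WT-bivalent genes, with 13.5 counts and 11.7 kb against 10 and 7.80 kb. H3K9me3, a mark of heterochromatin, lay within 5 kb in WT mESC at 11 of the 16 and 7 of the 28, where over all WT-bivalent genes the counts were 1254 of 3081 and 360 of 1019. The promoters held medians of 16.5 and 12.5 CG in 250 bases, against 15 and 11 over all WT-bivalent genes. The part of domain height in the KO calls was not tested.

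H3K9me3 in WT mESC was listed within 5 kb of 23 members, against 29.7% of coding genes, and in KO mESC of 10, against 40.1%. The KO domains at members were long, with a median of 6856.2 kb against 73.8 kb in WT, where the medians over all coding genes with the mark were 588.6 and 172.8 kb, and 1 of 26415 kb covered Dlx3 and Dlx4. Members with the mark in both genotypes were Dlx4, Six6, Lhx9, Otx1, Otx2, Meis1, Meis2 and Tlx3. Uhrf1 windows of 10 kb in WT mESC covered the start of no member. They lay within 10 kb of 3 members, against 8.39% of coding genes: Nkx3-2 at 4.27 kb, Nkx6-1 at 5.76 kb and Lmx1a at 9.37 kb. The median distance from a member's start to the closest window was 301.4 kb, with a range of 4.27 to 2694.0 kb. Of the 3, Nkx3-2 had no H3K4me3 call in KO mESC, and Nkx6-1 and Lmx1a were active.

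Oct4, Sox2 and Nanog are the core pluripotency factors. A WT Oct4 summit lay within 10 kb of 30 members, against 12.5% of coding genes, and a KO Oct4 summit of 1, Gsx2, against 0.335%. The WT list had 12898 Oct4 summits and the KO list 576. Sox2 summits were near 25 members in WT (9.0% of coding genes) and 42 in KO (37.8%), from lists of 5190 and 20755 summits, and Nanog summits near 3 in WT (2.54%) and 16 in KO (10.2%), from lists of 2390 and 10632. These counts moved with the length of the lists. With the longer list of each pair reduced to the number of the shorter by height, Oct4 was near 2 members in WT and 1 in KO, Sox2 near 25 and 13, so that the direction turned, and Nanog near 3 and 3. No share over all coding genes is given for the reduced lists, so these counts do not tell members from other genes.

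The 5 tallest WT Oct4 summits near members are printed with 50 bases before the summit and 50 from it on, in mm9. Capitals mark the octamer ATGCNAAT, which reads ATTNGCAT on the other strand, and the Sox motif CNTTGT, which reads ACAANG there. Both strands were searched, and overlapping matches count for both motifs.
Gsx2 site, chr5:75481337-75481436, plus strand: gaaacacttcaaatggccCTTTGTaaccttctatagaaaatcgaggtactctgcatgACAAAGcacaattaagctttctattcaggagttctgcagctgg
Gbx2 site, chr1:91832625-91832724, plus strand: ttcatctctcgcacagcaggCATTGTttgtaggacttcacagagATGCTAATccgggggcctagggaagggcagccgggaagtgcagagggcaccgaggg
Meis2 site, chr2:115885959-115886058, plus strand: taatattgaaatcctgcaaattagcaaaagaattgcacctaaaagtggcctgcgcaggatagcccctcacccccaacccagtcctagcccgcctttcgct
Nkx2-2 site, chr2:147015430-147015529, plus strand: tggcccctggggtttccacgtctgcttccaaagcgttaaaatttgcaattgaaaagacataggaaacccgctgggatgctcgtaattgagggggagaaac
Tlx1 site, chr19:45218212-45218311, plus strand: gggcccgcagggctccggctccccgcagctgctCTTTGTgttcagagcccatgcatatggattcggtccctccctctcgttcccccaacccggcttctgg
The site 9898 bp downstream of the Gsx2 start was the tallest, with 108 reads at the summit, and the 1 that the KO Oct4 list shared within 100 bp, with 15 reads. Sox2 had 58 reads there in WT and 80 in KO, and Nanog 34 and 38. The Gbx2 site, at -2810 bp from its start, had 94 Oct4 reads and 1 octamer, with Sox2 at 35 reads in WT and 32 in KO. At the Meis2, Nkx2-2 and Tlx1 sites Oct4 had 86 reads in WT and no KO summit within 100 bp, while Sox2 had 32, 36 and 25 reads in WT and 46, 31 and 45 in KO. Another tall site, 4624 bp downstream of the Otx2 start, had 70 Oct4 reads in WT and none listed in KO. Sox2 went from 36 to 91 reads there and Nanog from 52 to 89.

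Of the 48 WT Oct4 summits near members, the octamer was within the 100 bases of 2 (4.17%, 1.15 to 13.98) and the Sox motif of 12 (25%), against 14.6% and 24.3% of the 12898 windows of the whole list. The median height was 25 reads near members and 37 over the list. In KO, 1 of the 48 kept an Oct4 summit (2.08%, against 1.89% over the whole list), 10 had a Sox2 summit that WT lacked (20.8% against 15.9%), 2 a Nanog summit that WT lacked (4.17% against 10.2%) and 3 both (6.25% against 10.1%). The other 32 had none of these (66.7%, 52.5 to 78.3), against 61.9% over the whole list. Of those 32, 9 had a Sox2 or Nanog summit in KO that WT also had. Sox2 sites near members numbered 39 in WT and 89 in KO, of which 17 were shared, and Nanog sites 4 and 18, of which 3 were shared. The shared Sox2 sites were 43.6% of the WT and 19.1% of the KO sites near members, against 64.6% and 16.2% of the whole lists, and for Nanog 75% and 16.7% against 81.5% and 18.3%.

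**Figure D5:**
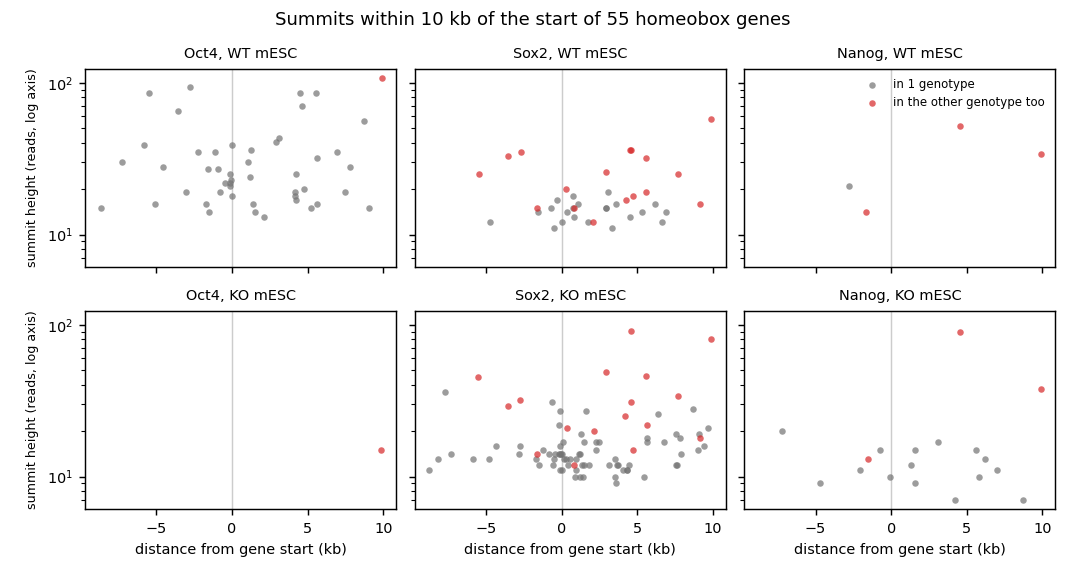
Height (reads at the summit, log axis) and distance from the gene start of each Oct4, Sox2 and Nanog summit within 10 kb of a member in WT (top) and KO mESC (bottom), in red where the other genotype had a summit of the same factor within 100 bp. Oct4 has 48 summits in WT and 1 in KO, while Sox2 has 39 and 89.

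Homeobox genes that are not among the 55 gave these counts. Of 43 further genes of tissue-restricted families, 35 were bivalent in the WT mESC list (18.3% of coding genes) against 11 in the KO one (4.29%). In WT EBs 33, 29 and 35 were (15.2%, 13.7% and 19.6% of coding genes), against 15, 23 and 35 in KO EBs (10.7%, 13.4% and 11.3%). H3K4me3 was at 36 of the 43 in WT mESC and 28 in KO mESC (63.2% and 57.0% of coding genes). Of the 35 bivalent in WT mESC, 26 still had H3K4me3 in KO (74.3%), against 75.1% of all WT-bivalent genes and 16 of 44 members. H3K27me3 was still listed at 18 of the 35, against 20.4% and 17 of 44. At week 1 H3K4me3 was still listed at 15 of 33, against 75.0% and 24 of 46 members. H3K27me3 was still listed at 33 of 33 then, against 71.2% and 46 of 46. Of 32 TALE, zinc-finger, POU and other homeobox genes, the bivalent count was 18 in the WT list of mESC against 3 in that of KO. H3K4me3 was at 31 and 29 of the 32, and 16 of the 18 still had it in KO mESC.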

How the data were processed

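Histone, factor and Uhrf1 ChIP-seq lists of WT and Uhrf1 KO mESC and EBs were used as deposited. The authors aligned reads to mm9 with Bowtie2 2.1.0, per the labels, and reported 1 alignment per read. They called histone domains with RSEG against input, and the deposited signal is a mean read count per bin, with a deposited domain score beside it. Factor summits were called with MACS, and their deposited signal is a read count at the summit. Uhrf1 regions are 10 kb windows with no value of their own used. Replicates were not pooled, since each group has 1 library.

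Gene starts came from GENCODE vM1 (NCBIM37); where a symbol had more than 1 record (1 member), the lower gene ID was used. None of 318036 regions ran past the end of its NCBIM37 chromosome, and 575 lay on names not in that genome and were not used for genes. An overlap of 1 bp counted, summits within 100 bp counted as shared, and shares carry 95% Wilson intervals. The overlap code was checked on made-up domains at set distances from 1 gene per made-up chromosome, with 200 of 200 classes recovered. This checks the window rule alone and not the calls at real domains. Python 3.11.15, numpy 2.4.6 and pandas 2.3.3 were used. The members and gene lists were chosen with earlier results of these data known. Genes were named by rule as those lacking a mark in WT mESC, bivalent in KO mESC, not bivalent in KO EBs in 2 or more weeks where WT was, near H3K9me3 or Uhrf1, or near a WT Oct4 summit, and values are given for only some of them; these, and the examples of each subfamily, were chosen after their values were seen. Alternatives were other windows, all transcript starts, higher scores, lists of equal number and a count minimum; H3K27me3 within 2 kb was added after seeing the data. The alleles of the KO were not checked here, since no list measures them.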

Additional observations from a re-analysis of the deposited data

How the results depend on the processing

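No paired analysis was possible because each group has 1 library, so neither a replicate block nor leaving out a replicate could be run. Of 118 alternative values of the 21 counts, 79 stayed within 1.5 times the count reported and 39 did not; these follow. With domains above the median score, bivalent members numbered 29 in WT mESC, 2 in KO mESC, 8 in KO week 1 and 21 in KO week 2, and WT-bivalent members still bivalent in KO 2, 8 and 17 at these stages. With lists of equal number, WT mESC had 18 bivalent members, of which 1 was bivalent in KO, while the bivalent count in KO mESC stayed at 4. With both marks over the start base, bivalent members in KO numbered 12 at week 1 and 23 at week 2, and the WT-bivalent ones still bivalent 2 in mESC, 12 at week 1 and 20 at week 2. With the KO H3K27me3 count minimum, 0 members were bivalent in KO mESC, 0 of them WT-bivalent, and 26 at week 3, all 26 WT-bivalent. Uhrf1 windows lay over 0 starts and within 50 kb of 11. Oct4 summits in WT were near 15 members within 2 kb, 11 with taller summits and 2 with lists of equal number, and in KO near 0 within 2 kb, 4 within 50 kb, 0 with taller summits and 4 as the closest coding gene. Sox2 gave 12 within 2 kb and 9 with taller summits in WT, and 18 with taller summits and 13 with equal lists in KO, where WT stayed at 25. Nanog in WT gave 1 within 2 kb, 10 within 50 kb and 12 as the closest gene, and in KO 6, 34, 8 with taller summits, 3 with equal lists and 34 as the closest gene. The share of WT-bivalent members with H3K4me3 in KO mESC was below that of all WT-bivalent genes also within 1 kb, above the median score and with equal lists (9 of 18 against 73.3%). The cause was not tested where a count moved, and depth, for which the lists were not adjusted, limits each absence to not listed.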
